A study of Arabidopsis thaliana with 41 samples.

Results

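The 49 genes described here are the nuclear genes of Arabidopsis thaliana for the light-harvesting antennae, the nucleus-encoded photosystem subunits, the Rieske protein, plastocyanin and 2 chloroplast ATP synthase subunits. They were taken by locus, as the LHCB, LHCA, PSA, PSB, PETC, PETE, ATPC1 and ATPD genes, and are 49 of the 33544 genes in the deposited table. By role they are 15 LHCB genes (antenna of photosystem II), 6 LHCA genes (antenna of photosystem I), 12 PSA genes (photosystem I subunits), 11 PSB genes (photosystem II subunits) and 5 PET and ATP genes. All 49 reached 1 FPKM in at least 2 libraries and were among the 18389 genes tested.

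RNA was sequenced from dissected embryos of the val1 mutant and of wild type at 7, 8, 10, 12, 13, 15 and 17 days. Each group had 3 libraries, except wild type at day 17, which had 2, giving 41 in all. The labels name neither the val1 allele nor the accession, and give no second mutation or treatment. Plants of both genotypes were grown under the same conditions, and their embryos were dissected side by side in the cold and washed against endosperm. Of the 41 libraries, 7 are used without a replicate number: 1 in each genotype at days 8 and 12, and the 3 of val1 at day 17, called a, b and c here. The series text names 3 biological and 4 technical replicates without saying which libraries are which, so p-values measure the spread between these libraries, which may be partly technical.

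Chlorophyll a/b binding proteins collect light and pass the energy to the reaction centres of the photosystems, which drive electron transport through the cytochrome b6f complex and plastocyanin. The proton gradient this builds powers the chloroplast ATP synthase. Embryos of Arabidopsis are green for part of seed development and lose their chlorophyll before the seed is dry. VAL1 is a B3-domain repressor best known for silencing seed maturation genes, and it recognises the RY element (CATGCA).

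VAL1 itself, listed as HSI2 in RefSeq, averaged 1.43, 3.16, 6.53, 5.46, 4.87, 3.62 and 2.50 scaled FPKM in val1 embryos from day 7 to day 17. The wild-type means were 11.6, 16.7, 20.2, 17.3, 13.9, 9.06 and 5.91 scaled FPKM. Its transcript was lower in val1 on each of the 7 days, by 1.69 on the log2 scale on average (log2 difference -1.69, SE 0.07, adjusted p = 5.17e-19). Markers of embryo maturation summed to 534.1 to 832.7 scaled FPKM in val1 and 393.5 to 720.2 in wild type at day 7, to 216900 to 308500 in val1 and 155000 to 357000 in wild type at day 12, and to 179600 to 350500 in val1 and 119500 to 138900 in wild type at day 17, where the genotypes did not overlap. Estimated depth ran from 8321306 to 51738641 reads per library with a median of 29731894, and replicates of a group correlated at 0.968 to 0.991 over genes.

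Transcripts of the 49 genes were most abundant at day 8 in nearly all cases and were largely lost by day 17. Day 8 held the highest mean for 45 of the 49 genes in val1 and for 47 in wild type. The exceptions in both genotypes were LHCB7, highest at day 17, and PSAH-1, highest at day 10. In val1, LHCB4.3 and PSBR were also highest at day 10. At day 8 the 49 genes together took 4.13% ± 0.61 of all estimated reads in val1 (SD, n = 3) and 4.43% ± 0.96 in wild type (SD, n = 3). At day 17 that share was 0.0154% ± 0.00059 in val1 (SD, n = 3) and 0.0128% ± 0.00048 in wild type (SD, n = 2). In whole embryos, fewer green cells and less RNA of these genes per cell cannot be told apart.

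The median gene stood at 53.4% of its day-8 level at day 7 in val1 and at 65.5% in wild type. By day 10 the median gene was at 59.0% in val1 and 46.3% in wild type. It was at 11.6% and 6.76% on days 12 and 13 in val1, and at 13.1% and 3.78% on those days in wild type. The median fell to 0.572% in val1 and 0.273% in wild type on day 15, and to 0.0796% in val1 and 0.0547% in wild type on day 17. Day-17 means were under 1 scaled FPKM for 35 genes in val1 and 36 in wild type, and 5 genes in val1 and 3 in wild type were listed at 0 in every library. The ranking also turned over: CAB1 was the most abundant of the 49 up to day 10 in both genotypes, while PETC was on day 15 (145 scaled FPKM in val1, 137 in wild type). At day 17 the most abundant was PETC in val1, with 104 scaled FPKM, and LHCB4.1 in wild type, with 40.0 scaled FPKM.

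**Figure D1:**
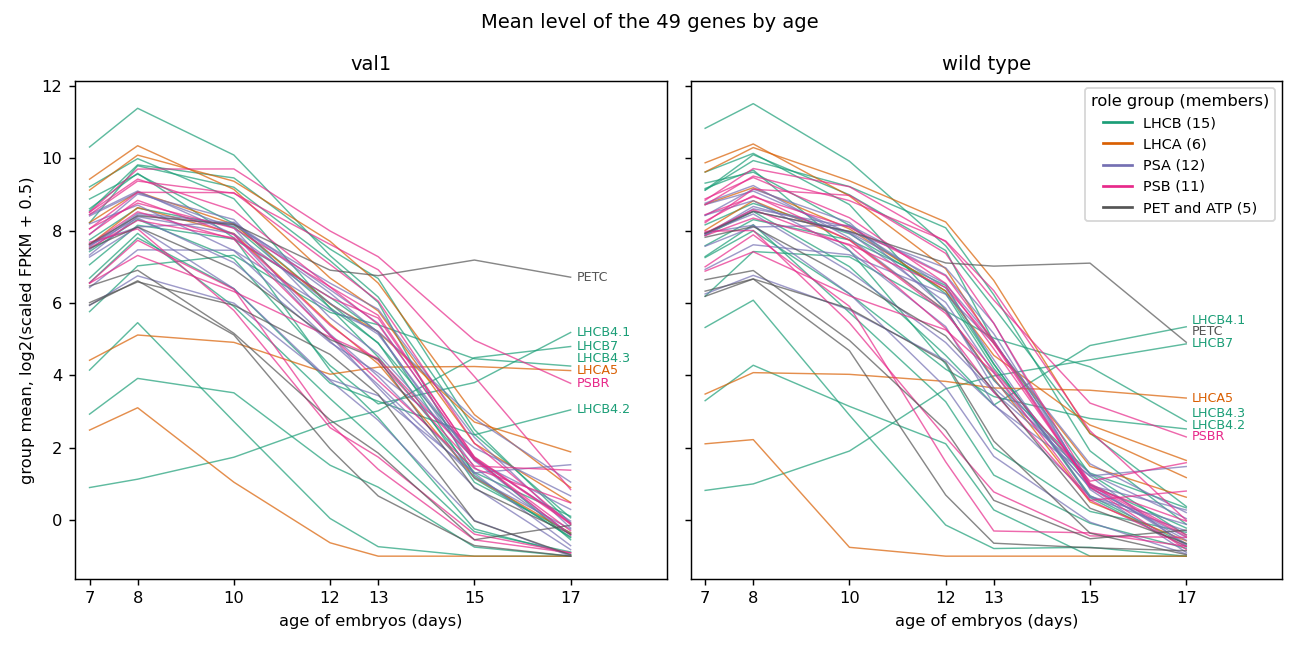
Mean level of each of the 49 genes by age, on the scale log2(scaled FPKM + 0.5), in val1 (left) and wild type (right). Each line is 1 gene, coloured by role group, and the lines that end highest at day 17 are named. Nearly all lines peak at day 8 and descend together, while LHCB7 climbs to day 17; PETC, LHCB4.1 and LHCB7 end highest in both genotypes, at 104, 35.8 and 27.2 scaled FPKM in val1 and 29.6, 40.0 and 28.7 in wild type.

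Each interval between neighbouring ages was tested for every gene with limma, and a gene is called changed at an adjusted p under 0.05 over all 18389 genes. From day 7 to day 8, 7 of the 49 rose and none fell in val1, where 21.9% of all genes tested were called (10.2% higher and 11.6% lower), and 3 rose and none fell in wild type (17.5% of all genes, 8.18% higher and 9.28% lower). The median change of the 49 was 0.89 in val1 and 0.58 in wild type on the log2 scale. From day 8 to day 10, 18 fell and 1 rose in val1 (57.8% of all genes called, 28.2% higher and 29.5% lower) and the 49 had a median of -0.79; 23 fell and 1 rose in wild type (56.7% of all genes called, 27.4% higher and 29.3% lower), where the median was -1.08. In this interval the members' share called, 38.78% in val1 and 48.98% in wild type, was below that of all genes.

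From day 10 to day 12, 47 of the 49 fell and 1 rose in val1, where 23.5% of all genes were called (10.6% higher and 12.9% lower), with a median of -2.11. In wild type 36 fell and 1 rose (26.5% of all genes called, 12.1% higher and 14.4% lower), with a median of -1.69. From day 12 to day 13 only PETE1, a plastocyanin, fell in val1 (log2 change -1.26; 4.04% of all genes called, 1.79% higher and 2.24% lower), with a median of -1.03 over the 49, while 41 fell in wild type (21.4% of all genes called, 8.7% higher and 12.7% lower), with a median of -1.91. At an unadjusted p under 0.05 there were 22 genes in val1 in that interval. From day 13 to day 15, 43 fell and 1 rose in val1 (53.4% of all genes called, 24.5% higher and 28.9% lower; median -2.95), and 40 fell and 1 rose in wild type (also 53.4%, 24.7% higher and 28.7% lower; median -3.02). From day 15 to day 17, 22 fell and 1 rose in val1 (43.8% of all genes called, 18.9% higher and 24.8% lower; median -1.11), and 4 fell in wild type (33.6% of all genes called, 14.9% higher and 18.7% lower; median -0.60). In this last interval many of the 49 were near the floor. Means under 1 scaled FPKM went from 11 to 35 genes in val1 and from 15 to 36 in wild type. The median of the 49 means went from 2.61 to 0.404 scaled FPKM in val1 and from 1.44 to 0.311 in wild type. The constant added before taking logs shrinks changes at such levels. The counts and log2 medians from day 15 to day 17 thus do not show that the fall had nearly stopped in wild type. The median over all genes tested lay between -0.04 and 0.02 in every interval.

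Several of these counts rest on single libraries. Leaving out replicate 1 or 3 of val1 at day 7 or the unnumbered library of val1 at day 8 gave 3 rises in val1 from day 7 to day 8, leaving out replicate 3 of val1 at day 8 gave 4, and leaving out replicate 2 of wild type at day 13 or replicate 3 of wild type at day 15 gave 11 and 12. For wild type in that interval, there was 1 rise without replicate 1 or 3 at day 7 or without replicate 3 at day 8. From day 8 to day 10 the calls numbered 12 in val1 without replicate 3 or the unnumbered library of day 8, 10 in val1 without replicate 2 of day 10, and 13 in wild type without replicate 3 of day 8. From day 12 to day 13 there were 18 calls in wild type without its replicate 2 of day 13. In val1 the single call of that interval was lost without the unnumbered library of day 12 or replicate 2 of day 13. There were 2 to 4 calls there without any 1 of these libraries: val1 day 7 replicate 2, day 10 replicate 2, day 13 replicate 1 or day 15 replicates 2 or 3, or wild type day 13 replicates 2 or 3 or day 15 replicates 2 or 3. From day 15 to day 17 the calls were 7 and 5 in val1 without replicates 1 and 3 of day 15 and 10 without library b of day 17. In wild type they were 14 without its replicate 2 of day 15 and 7 without replicate 2 of val1 at day 15, since all groups share 1 estimate of the spread. Without scaling the libraries, the median of all genes moved to -0.60 in val1 and -0.63 in wild type from day 8 to day 10, and 38 genes in val1 and 46 in wild type were then called lower.

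The LHCB genes encode the antenna of photosystem II. CAB1, CAB2 and CAB3, neighbours on chromosome 1, and LHB1B1 and LHB1B2, neighbours on chromosome 2, all encode LHCB1, the main protein of the light-harvesting trimers. CAB1 (AT1G29930) had 1957, 2336 and 3687 scaled FPKM in val1 at day 8, against 2245, 3874 and 2602 in wild type. At day 17 it had 1.38, 0.117 and 0.131 scaled FPKM in val1, against 0.118 and 1.48 in wild type. The genotypes overlapped at both ages, and the drop from the day-8 mean to day 17 was the largest of the 15 LHCB genes (log2 change -11.32 in val1 and -11.13 in wild type). The 5 LHCB1 genes summed to 5223 ± 1697 scaled FPKM at day 8 in val1 (SD, n = 3) and to 5811 ± 1883 in wild type (SD, n = 3). Their sum at day 17 was 1.21 ± 1.6 in val1 (SD, n = 3) and 1.76 ± 2.1 in wild type (SD, n = 2).

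The split of LHCB1 reads among copies is uncertain, because the coding sequences of CAB1, CAB2 and CAB3, each of 804 bases, are 95.6% to 96.4% identical. Their first 120 coding bases, from RefSeq (TAIR10.1), are shown to make that likeness visible, with capitals at the bases that differ from CAB1 (7 in CAB2 and 6 in CAB3).
CAB1: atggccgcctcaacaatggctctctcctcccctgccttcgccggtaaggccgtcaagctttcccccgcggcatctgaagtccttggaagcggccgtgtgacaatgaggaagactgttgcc
CAB2: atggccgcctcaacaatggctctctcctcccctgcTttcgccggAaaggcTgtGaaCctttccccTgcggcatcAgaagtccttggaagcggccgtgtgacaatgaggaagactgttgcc
CAB3: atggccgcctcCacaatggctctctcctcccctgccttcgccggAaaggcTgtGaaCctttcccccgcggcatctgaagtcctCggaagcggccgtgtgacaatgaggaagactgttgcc
Transcripts that the authors' assembly lists as overlapping CAB1 or CAB2 without matching their exon structure were left out of the sums, and they were abundant. The CAB1 form averaged 2342 FPKM in val1 and 2392 FPKM in wild type at day 8, and the 3 CAB2 forms averaged 1192, 246.6 and 870.9 FPKM in val1 and 1560, 432.9 and 972.8 FPKM in wild type. These are FPKM before scaling, which divides the day-8 libraries by 1.70 to 2.00, so they are not on the scale of the levels above.

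The other LHCB genes encode further trimer proteins (LHCB2 and LHCB3) and the single antenna proteins CP29 (LHCB4), CP26 (LHCB5) and CP24 (LHCB6) that sit between the trimers and the core. LHCB5 averaged 1013 ± 139 scaled FPKM in val1 and 1121 ± 356 in wild type at day 8 (SD, n = 3 each), and LHCB3 averaged 754 ± 130 in val1 and 783 ± 268 in wild type. LHCB2.3 was low by comparison, at 43.3 ± 11.8 scaled FPKM in val1 and 66.9 ± 35.7 in wild type. On the log2 scale it had the largest fall of the 49 from day 8 to day 10 in wild type (-3.18). As a share of the day-8 level, LHCA6 kept less there (2.21%) than LHCB2.3 (10.4%). The median LHCB gene was at 8.35% of its day-8 level on day 12 in val1 and at 9.68% in wild type.

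The LHCB4 copies parted from one another. LHCB4.1 (AT5G01530) had 10.9, 5.20 and 10.09 scaled FPKM in val1 at day 13, 11.3, 21.4 and 7.43 at day 15, and 31.5, 45.4 and 30.5 at day 17. In wild type it had 7.21, 6.56 and 11.8 scaled FPKM at day 13, 32.7, 31.5 and 19.2 at day 15, and 44.6 and 35.4 at day 17. It thus fell to its lowest level at day 13 and then rose while most of the 49 went on falling. The rise was called from day 13 to day 15 in wild type (log2 change 1.65, SE 0.32, adjusted p = 7.02e-05) and from day 15 to day 17 in val1 (1.49, SE 0.32, adjusted p = 0.000375). In the second deposited quantification neither rise was called. LHCB4.1 is listed there at 0.936, 18.8 and 8.98 in val1 at day 17, against 30.2 and 17.4 in wild type. The change from day 15 to day 17 in val1 was -0.35 there (adjusted p = 0.862). The change from day 13 to day 15 in wild type kept its direction, at 0.58 (adjusted p = 0.518).

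LHCB4.3 (AT2G40100) made up a growing share of the 2 copies LHCB4.3 and LHCB4.1 up to day 13. Its share averaged 23.96, 29.2, 52.7, 74.2 and 82.7% in val1 on days 7, 8, 10, 12 and 13, and 23.5, 31.8, 55.2, 69.3 and 78.7% in wild type. On days 15 and 17 it averaged 63.2 and 34.3% in val1 and 39.8 and 13.2% in wild type. The coding sequences of these copies are 71.8% identical, so the copies are far easier to tell apart in reads than those of LHCB1. The other copy, LHCB4.2 (AT3G08940), is not part of this share. It was highest at day 8, at 222 scaled FPKM in val1 and 254 in wild type. On days 13, 15 and 17 it stood at 4.16, 2.08 and 3.49% of that level in val1, and at 3.99, 2.55 and 2.05% in wild type.

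LHCB7 (AT1G76570), a distant relative of LHCB5 whose coding sequence is 63.1% identical to it, ran against most of the 49 genes. In val1 it had 2.21, 1.17 and 1.68 scaled FPKM at day 8, 5.01, 5.72 and 7.03 at day 12, and 26.3, 27.0 and 28.4 at day 17. In wild type it had 1.73, 1.31 and 1.45 at day 8, 11.6, 11.1 and 12.8 at day 12, and 32.0 and 25.3 at day 17. Its level rose from day 8 to day 10 (log2 change 0.63, adjusted p = 0.0173 in val1; 0.90, adjusted p = 0.001 in wild type) and from day 10 to day 12 (0.94, adjusted p = 0.00203 in val1; 1.73, adjusted p = 4.67e-07 in wild type). From day 13 to day 15 the rise was called in val1 (1.55, adjusted p = 7.32e-07), and in wild type the change was 0.44 (adjusted p = 0.0969). Without scaling the 2 val1 changes up to day 12 were 0.05 and 0.48 and neither was called. The day 8 to day 10 rise in val1 was also lost with exact transcript matches alone (0.36) and without val1 day 8 replicate 3 or day 10 replicates 1 or 2 (0.46 to 0.58).

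The LHCA genes encode the antenna of photosystem I, with LHCA1 to LHCA4 forming its belt. LHCA3 (AT1G61520) had 866, 1170 and 1218 scaled FPKM in val1 at day 8, against 1131, 1743 and 887 in wild type, and 2.11, 1.35 and 0.617 in val1 at day 17, against 1.53 and 1.98 in wild type. On the log2 scale LHCA1 (AT3G54890) went down most of the 6, by -9.86 in val1 and -9.76 in wild type between its highest age and day 17. Both genotypes overlapped for these belt genes at these ages. As a share of the day-8 level, LHCA2 (0.0377%) and LHCA6 (0) kept less than LHCA1 (0.0779%) in wild type at day 17. LHCA5 and LHCA6 are different: in Arabidopsis their proteins link photosystem I to the NDH complex of cyclic electron flow. LHCA5 moved by only -0.98 in val1 and -0.70 in wild type over the same span, and LHCA6 was listed at 0 in every library of both genotypes from day 13 on.

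The PSA genes encode subunits of photosystem I. PSAF (AT1G31330), whose protein docks plastocyanin, had 432, 607 and 597 scaled FPKM in val1 at day 8, against 519, 875 and 422 in wild type. On the log2 scale its drop to day 17 was the largest of the 12 (-9.91 in val1 and -9.80 in wild type). As a share of the day-8 level, PSAH2 kept less (0 in val1 and 0.00765% in wild type) than PSAF (0.0121% and 0.0295%). PSAD-2 (AT1G03130), 1 of 2 copies for the subunit that docks ferredoxin, dropped least, by a log2 change of -5.22 in val1 and -5.28 in wild type. All 12 fell from day 10 to day 12 in val1, 10 of the 12 did in wild type, and all 12 fell from day 13 to day 15 in both. Among all genes 12.9% fell in val1 and 14.4% in wild type from day 10 to day 12, and 28.9% in val1 and 28.7% in wild type from day 13 to day 15. From day 12 to day 13 all 12 fell in wild type (median -2.01; 12.7% of all genes fell) and none was called in val1 (median -1.08; 2.24% of all genes fell). None of the 12 was called for the interaction of genotype and day. The wild-type calls of this interval depend on replicate 2 of day 13, as given above.

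The PSB genes encode subunits of photosystem II, of which PSBO, PSBP and PSBQ shield the oxygen-evolving site, PSBR helps attach them and PSBS acts in photoprotection. PSBO1 (AT5G66570) had 520, 672 and 862 scaled FPKM in val1 at day 8, against 587, 988 and 541 in wild type, and 0.559, 0.0893 and 0.0977 in val1 at day 17, against 0.0306 and 0.427 in wild type. On the log2 scale that drop was the largest of the 11 in wild type (-9.84 in val1, -9.92 in wild type). PSBP-1 (AT1G06680) dropped least in wild type on that scale, by -7.46 in val1 and -7.38 in wild type. As a share of the day-8 level in wild type, PSBTN kept less (0.0212%) than PSBO1 (0.0324%). PSBR kept slightly more (0.526%) than PSBP-1 (0.4996%). PSBR, the most abundant of the 11 over all libraries, dropped by -5.93 in val1 and -7.42 in wild type. At day 12 the median PSB gene still held 20.1% of its day-8 level in val1 and 21.9% in wild type, above the 8.35% and 9.68% of the LHCB genes; this difference between the role groups was not tested.

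Among the PET and ATP genes, PETC encodes the Rieske iron-sulphur protein of the cytochrome b6f complex, PETE1 and PETE2 plastocyanins, and ATPC1 and ATPD the gamma and delta subunits of the chloroplast ATP synthase. PETC (AT4G03280) kept a high level through day 15: it had 283, 364 and 368 scaled FPKM in val1 at day 8, against 324, 526 and 257 in wild type, and 150, 133 and 152 in val1 at day 15, against 155, 109 and 146 in wild type. At day 17 it had 115, 60.7 and 137 scaled FPKM in val1, against 25.8 and 33.4 in wild type, with no overlap. PETC fell from day 15 to day 17 in wild type (log2 change -2.18, SE 0.28, adjusted p = 3.1e-07), while the change in val1 was -0.55 (adjusted p = 0.0749). On the log2 scale PETE2 (AT1G20340) had the largest drop of the 5 to day 17 (-8.49 in val1 and -8.76 in wild type). As a share of the day-8 level, ATPC1 kept less than PETE2 at day 17. ATPC1 was at 0.0128% in val1 and 0.0141% in wild type, and PETE2 at 0.0964% and 0.0502%.

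Where a subunit has 2 gene copies, the copies did not decline in step. The 6 such pairs outside the LHCB genes are taken whole, and since the ages were chosen after the values were seen, they are described without a test. PSBQA made up 44.1, 33.2, 9.13 and 3.77% of PSBQA plus PSBQ-2 in val1 on days 7, 8, 10 and 12, and 46.0, 30.9, 7.83 and 2.59% in wild type. Over both genotypes, its share lay between 1.72 and 6.30% in the 6 libraries of day 12 and between 29.5 and 33.9% in the 6 of day 8. PSBO2 held 4.26% of its pair at day 12 and 24.5% at day 8, and PETE1 held 6.22% and 26.6% (means over 6 libraries of both genotypes). PSAH2 held 12.4% at day 12 and 50.5% at day 8. In the other direction, PSAD-2 held 33.1% at day 12 and 19.9% at day 8, and PSAE-2 held 68.5% and 35.5%.

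The shares of day 12 and day 8 did not overlap in any of the 6 pairs, and the direction was the same in both genotypes, with exact transcript matches alone and in the second deposited quantification. The coding sequences within these pairs are 75.0% to 88.0% identical. PSAH-1 overlaps ROPGEF13 on the other strand by 788 bases and PSAE-1 overlaps AT4G28755 by 436 bases; whether reads were counted by strand is not given in the sources used here, so the shares of these pairs could hold reads of those partners.

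**Figure D2:**
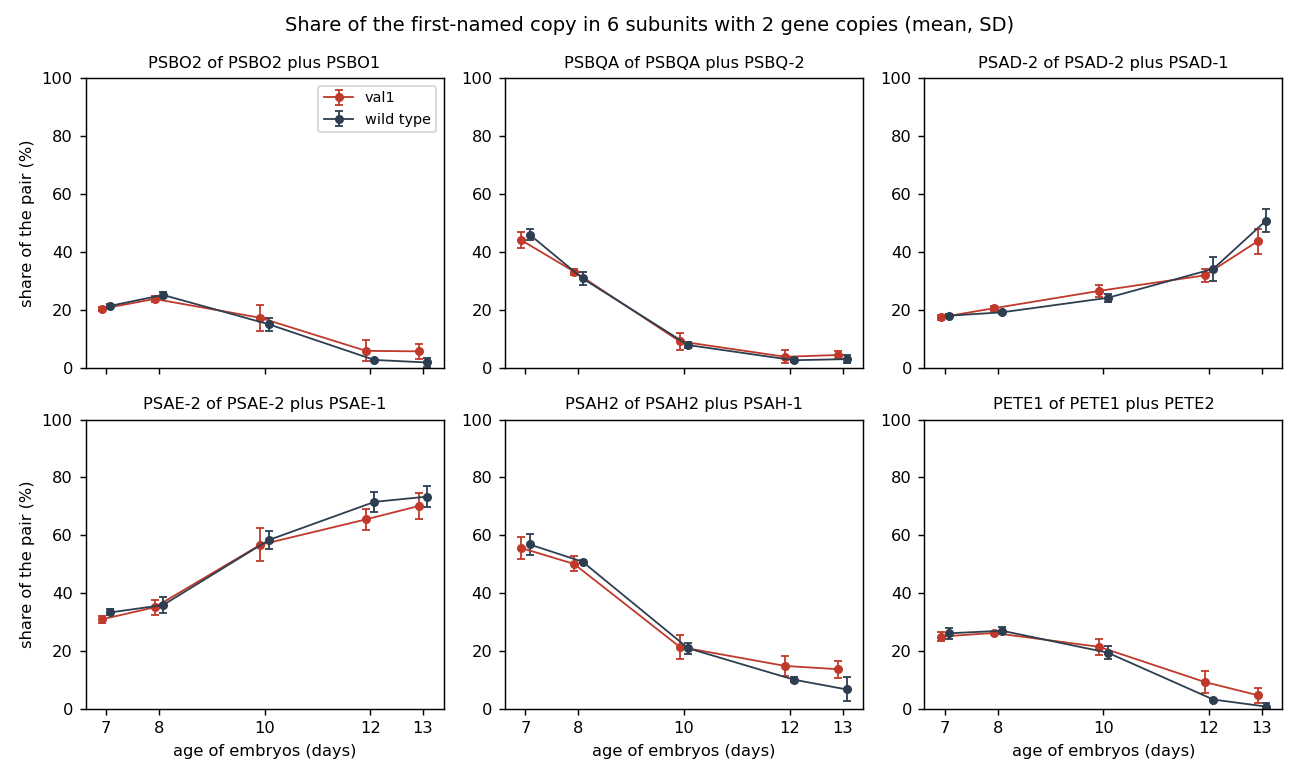
Share (%) held by the first-named gene copy in each of 6 subunits with 2 copies, by age from day 7 to day 13. Points are group means, bars the SD over 3 libraries, with val1 in red and wild type in dark blue. The PSBO2, PSBQA, PSAH2 and PETE1 shares go down and the PSAD-2 and PSAE-2 shares go up after day 8 in both genotypes, with the PSBQA share at 3.77% in val1 and 2.59% in wild type by day 12.

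The comparison of val1 with wild type asks which of the 49 depend on genotype at a given age. In the fit without a replicate block, 2.04% to 16.3% of the 49 were called on a day, and the share was above that of all genes on day 8 alone (4.08%). These shares depend on the fit. Libraries of the same number deviated together in 15 of 16 pairs of the 2 genotypes. With a block for these numbers, more of the 49 were called at days 13 and 15, and their share was then above that of all genes. Those counts are in the closing section, and the counts here are without the block. At day 7, 1 of the 49 was higher and none lower in val1, where 3.31% of all genes were called (1.95% higher and 1.35% lower). At day 8, 2 were higher (3.41% of all genes called, 2.16% higher and 1.25% lower), and at day 10, 2 were higher (5.41% of all genes called, 3.53% higher and 1.88% lower). At day 12, 1 was higher and 1 lower (8.52% of all genes called, 5.45% higher and 3.07% lower). At day 13, 7 were higher and 1 lower, or 16.3% of the 49, against 17.6% of all genes (10.8% higher and 6.76% lower). At day 15, 3 were higher and 1 lower (17.5% of all genes called, 11.9% higher and 5.53% lower), and at day 17, 4 were higher (15.4% of all genes called, 9.97% higher and 5.45% lower). On average over days 3 were higher and 1 lower, or 8.16% of the 49, against 32% of all genes (19.9% higher and 12% lower).

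The median difference between val1 and wild type over the 49 genes moved with age. It was -0.38 at day 7, where 46 of the 49 differences were negative, -0.11 at day 8 (41 negative), 0.14 at day 10 (43 positive) and -0.27 at day 12 (37 negative). It was 0.69 at day 13 (44 positive), 0.60 at day 15 (41 positive) and 0.00 at day 17 (21 positive and 25 negative). At day 17, 35 of the 49 means in val1 and 36 in wild type were under 1 scaled FPKM. There the 0.5 added before taking logs shrinks differences, so the day-17 median does not show that the genotypes had become alike. Medians over all genes tested lay between 0.00 and 0.02 in these comparisons. The standard error of a daily difference had a median of 0.48 over the 49 (0.53 at day 17), against 0.18 over all genes (0.20 at day 17).

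**Figure D3:**
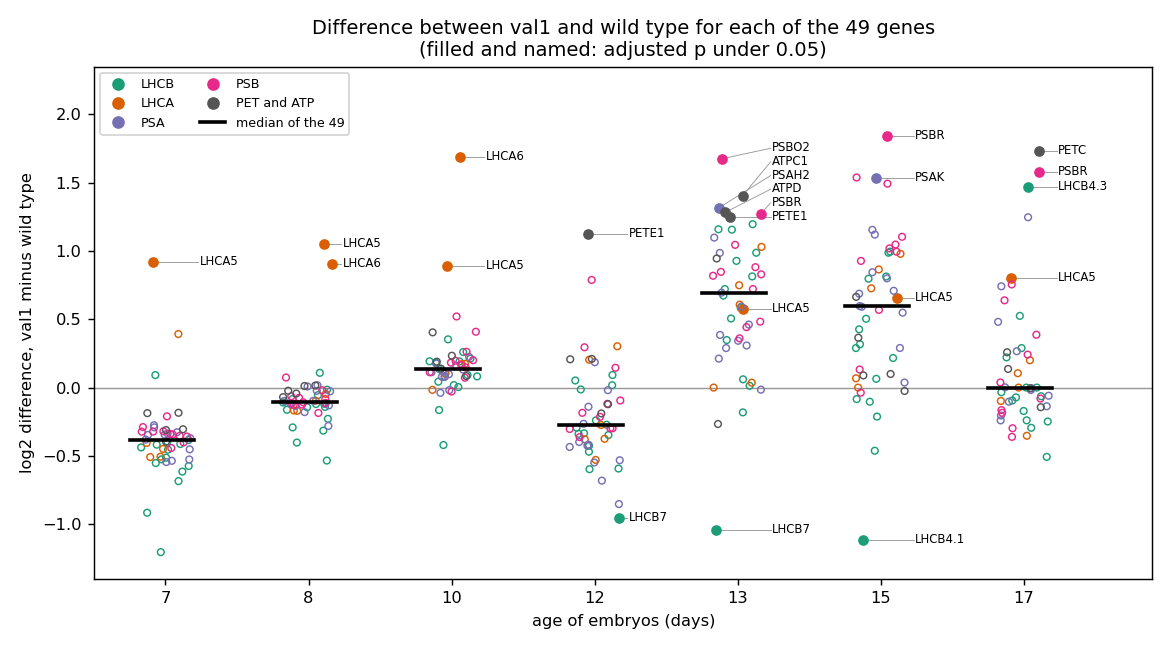
Log2 difference between val1 and wild type for each of the 49 genes on each day. Each point is 1 gene, filled and named where its adjusted p is under 0.05, and the bar is the median of the 49. The medians lie at -0.38 on day 7 and at 0.69 and 0.60 on days 13 and 15, while LHCA5 is called on 6 of the 7 days.

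LHCA5 (AT1G45474) was the gene that differed most steadily. It had 17.3, 26.5 and 18.6 scaled FPKM in val1 at day 7, against 9.87, 12.3 and 9.74 in wild type. At day 8 it had 30.1, 34.2 and 37.9 in val1, against 13.97, 20.4 and 14.6 in wild type, and at day 15 it had 18.8, 18.3 and 18.1 in val1, against 12.1, 11.2 and 11.2 in wild type. At each of these ages every val1 library was above every wild-type library. Its transcript was higher in val1 by 0.92 at day 7 (adjusted p = 0.000816), 1.05 at day 8 (9.9e-05), 0.89 at day 10 (0.000613), 0.58 at day 13 (0.0187), 0.66 at day 15 (0.00727) and 0.80 at day 17 (0.00353) on the log2 scale.

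At day 12, LHCA5 had 15.4, 16.4 and 15.6 scaled FPKM in val1, against 14.7, 11.9 and 14.6 in wild type, and the difference was 0.20 (adjusted p = 0.588). The average over days was 0.73 (SE 0.07, adjusted p = 1.31e-10). The day-17 call was lost without replicate 2 of wild type, which held 7.24 scaled FPKM (difference 0.43, adjusted p = 0.296), and without scaling (0.40). LHCA5 overlaps AT1G45545 on the other strand by 192 bases, and that gene was at most 0.416 scaled FPKM in any library.

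LHCA6 (AT1G19150) was higher in val1 at days 8 and 10, at low levels. It had 6.27, 10.08 and 7.90 scaled FPKM in val1 at day 8, against 3.22, 5.89 and 3.38 in wild type, with every val1 library above every wild-type one (difference 0.90, SE 0.25, adjusted p = 0.0348). At day 10 it had 2.41, 0.548 and 1.73 in val1, against 0.143, 0 and 0.134 in wild type, again without overlap (difference 1.69, adjusted p = 1.11e-05). The average over days was 0.47 (SE 0.10, adjusted p = 0.000274). The day-8 call was lost, and the number of day-8 calls fell to 1, without val1 replicate 3, the unnumbered val1 library, wild-type replicate 1 or the unnumbered wild-type library of that day (differences 0.73 to 0.90). In the second deposited quantification neither day was called.

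LHCB7 was lower in val1 at days 12 and 13, in the middle of its rise. It had 5.01, 5.72 and 7.03 scaled FPKM in val1 at day 12, against 11.6, 11.1 and 12.8 in wild type (difference -0.95, SE 0.22, adjusted p = 0.00421). At day 13 it had 4.05, 10.3 and 8.40 in val1, against 12.6, 17.08 and 16.2 in wild type (difference -1.05, adjusted p = 0.000942). The groups did not overlap on either day, and at days 15 and 17 they did (differences 0.06 and -0.06). On average over days the difference was -0.28 (SE 0.09, adjusted p = 0.0121). The day-12 call was lost without scaling (-0.90, adjusted p = 0.0506), and in the second deposited quantification the day-12 and average calls were lost (-2.03 and -0.30).

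Also at day 12, PETE1 (AT1G76100) was higher in val1, with 2.27, 1.81 and 6.15 scaled FPKM, against 1.06, 0.920 and 1.36 in wild type (difference 1.12, SE 0.36, adjusted p = 0.0435). Its call was lost without val1 day 8 replicate 3 or without the unnumbered val1 library, the unnumbered wild-type library or wild-type replicates 1 or 3 of day 12, leaving 1 call on that day. It was also lost with either other pseudocount (0.94 and 1.34).

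PSBR (AT1G79040) was higher in val1 late. At day 13 it had 170, 99.8 and 194 scaled FPKM in val1, against 66.8, 34.3 and 99.8 in wild type (difference 1.27, SE 0.44, adjusted p = 0.0392). At day 15 it had 41.7, 13.5 and 37.2 in val1, against 8.32, 2.96 and 15.4 in wild type (1.84, adjusted p = 0.00276), and at day 17 it had 11.03, 12.4 and 16.1 in val1, against 6.26 and 2.56 in wild type (1.57, SE 0.49, adjusted p = 0.0241). The groups met at day 13, overlapped at day 15 and were apart at day 17. The average over days was 0.73 (SE 0.17, adjusted p = 0.000934). The day-13 call was lost without replicates 1 or 3 of val1 or 1 or 2 of wild type at that age (differences 0.86 to 1.34), the day-15 call without replicate 2 of wild type (1.25), and the day-17 call without library c of val1 (1.43) or replicate 2 of wild type (1.00). PSBR overlaps RECA1 on the other strand by 51 bases, and RECA1 was not called between genotypes on any day (adjusted p = 0.435 to 1).

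The other genes higher in val1 at day 13 were already low. PSBO2 (AT3G50820) had 3.03, 1.63 and 1.76 scaled FPKM in val1, against 0.204, 0.311 and 0.414 in wild type (difference 1.68, SE 0.39, adjusted p = 0.00244). ATPC1 (AT4G04640) had 12.9, 4.35 and 14.6 in val1, against 5.44, 0.935 and 5.71 in wild type (1.41, SE 0.40, adjusted p = 0.0118). PSAH2 (AT1G52230) had 7.43, 3.91 and 7.41 in val1, against 3.50, 0.343 and 4.801 in wild type (1.32, SE 0.45, adjusted p = 0.0391). ATPD (AT4G09650) was higher by 1.28 (SE 0.32, adjusted p = 0.00473) and PETE1 by 1.25 (adjusted p = 0.0124). Of these, the PSBO2 and ATPD libraries did not overlap between genotypes, and those of ATPC1 and PSAH2 did. The ATPC1 and PSAH2 calls were lost without replicate 1 or 3 of val1 or replicate 2 of wild type (down to 0.71 and 0.50), and the ATPD call without replicate 1 of val1 (1.02) or replicate 2 of wild type (0.98). Without val1 replicate 1 or 3 of day 13 the day's calls numbered 2 and 5, and without wild-type replicate 2 or 3 they numbered 3 and 14.

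At day 15 PSAK (AT1G30380), a small subunit of photosystem I, had 4.97, 0.683 and 7.42 scaled FPKM in val1, against 0.535, 0.0378 and 3.31 in wild type (difference 1.53, SE 0.53, adjusted p = 0.0432), with overlap. LHCB4.1 was lower in val1 at that age, with 11.3, 21.4 and 7.43 scaled FPKM, against 32.7, 31.5 and 19.2 in wild type (difference -1.11, SE 0.32, adjusted p = 0.0146), also with overlap. That call was lost in the second deposited quantification (-0.82, adjusted p = 0.511). Both calls were lost without any 1 of val1 replicates 1 and 3 and wild-type replicates 1 and 2 of day 15 (0.91 to 1.39 for PSAK, -0.77 to -1.06 for LHCB4.1), and that of PSAK also without val1 replicate 3 or wild-type replicate 1 of day 8. The calls of day 15 numbered 2 without val1 replicate 1 or 3 or wild-type replicate 1, 1 without wild-type replicate 2, 21 without val1 replicate 2 and 27 without wild-type replicate 3 of that day. The calls on average over days numbered 7 without either of those last 2 libraries.

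At day 17 PETC, at the levels given above, was higher in val1 by 1.73 (SE 0.28, adjusted p = 3.34e-05). LHCB4.3 had 18.8, 11.3 and 25.7 scaled FPKM in val1, against 7.11 and 5.13 in wild type, without overlap (difference 1.47, SE 0.33, adjusted p = 0.0017). At day 15 it had 23.9, 20.3 and 20.2 in val1, against 20.2, 11 and 23.7 in wild type (0.29, adjusted p = 0.582). The maturation marker sums given above also lay apart between the genotypes at this age, and their part in these differences was not tested. Wild type has only 2 libraries at day 17, and without replicate 2 only PETC was called (LHCB4.3 difference 1.25, adjusted p = 0.0561).

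**Figure D4:**
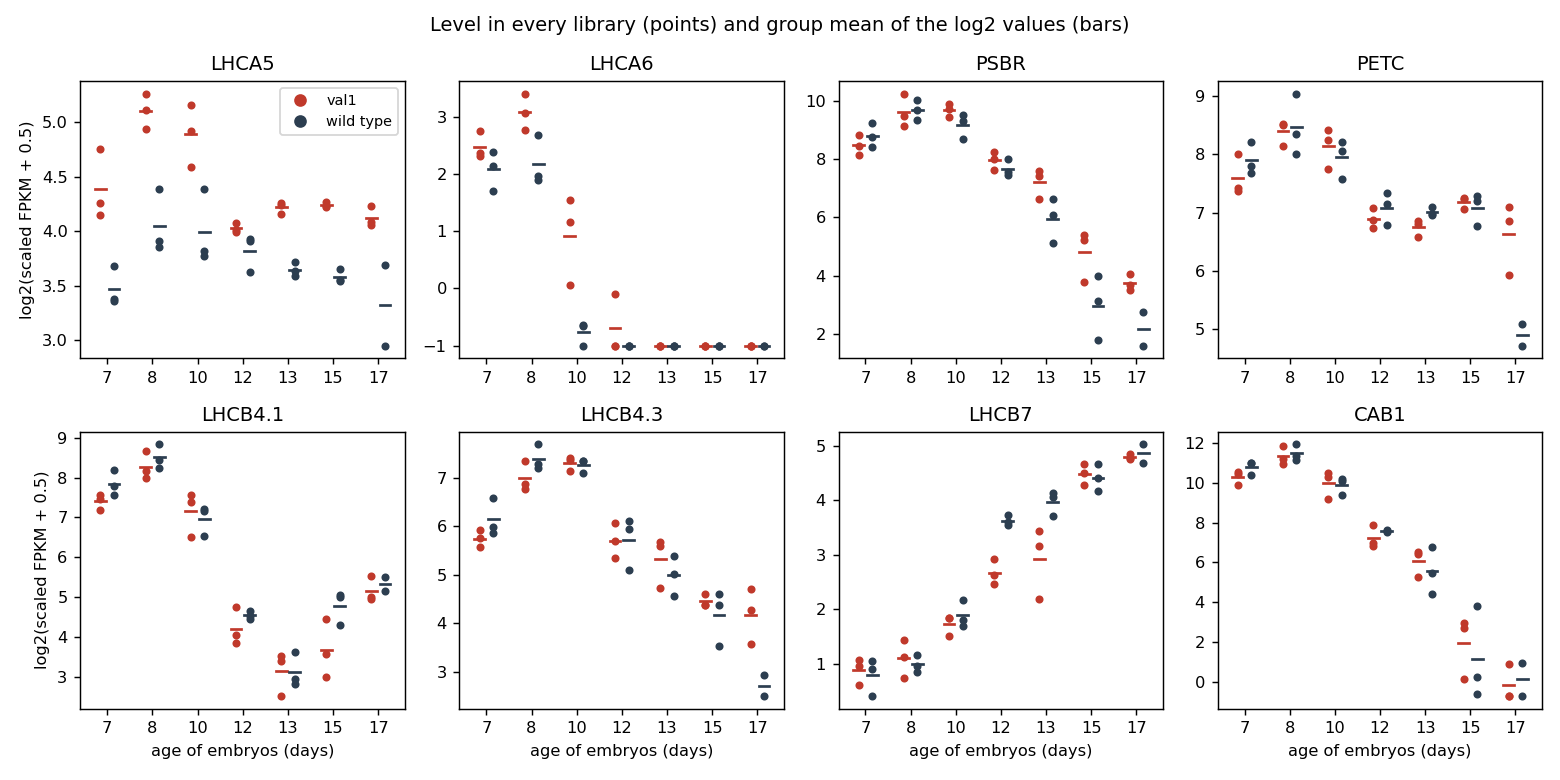
Level of 8 of the genes in every library by age, on the scale log2(scaled FPKM + 0.5), with val1 in red left of wild type in dark blue. Points are libraries and bars group means. LHCA5 is higher in val1 at day 8 (30.1 to 37.9 against 13.97 to 20.4 scaled FPKM) and PETC at day 17 (60.7 to 137 against 25.8 and 33.4), while the CAB1 points of both genotypes overlap.

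Whether the genotype difference changed with age was tested as an interaction over the 7 days. Without the replicate block it was called for 5 of the 49 genes, 10.2% of them, against 16.6% of all genes tested. With the block more of the 49 were called, and their share was above that of all genes, as counted in the closing section. The 5 genes called without the block were PETC, LHCA6, LHCB7, LHCB4.3 and PSBR, and LHCA5 was not among them (adjusted p = 0.133). Leaving out 1 library gave 3 calls for val1 day 7 replicate 3, val1 day 8 replicates 1 or 3, val1 day 17 libraries a or c and wild type day 17 replicates 1 or 2, and 8 calls for wild type day 15 replicate 3.

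The 49 genes also moved together between libraries of the same group. In replicate 2 of day 10, 1 of the 49 in val1 and 0 in wild type were above their group mean. In replicate 2 of day 13, 3 of the 49 were above the group mean in each genotype, with a median deviation of -0.73 in val1 and -1.05 in wild type on the log2 scale, while replicate 3 of wild type stood at 0.89 (47 above). At day 15, replicate 2 of val1 stood at -1.01 (2 above), replicate 2 of wild type at -0.96 (4 above) and replicate 3 of wild type at 1.27 (42 above). The median residual SD was 0.63 for the 49 and 0.22 for all genes. Each genotype difference of days 13 and 15 holds these libraries, and the counts without each of them are given above.

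**Figure D5:**
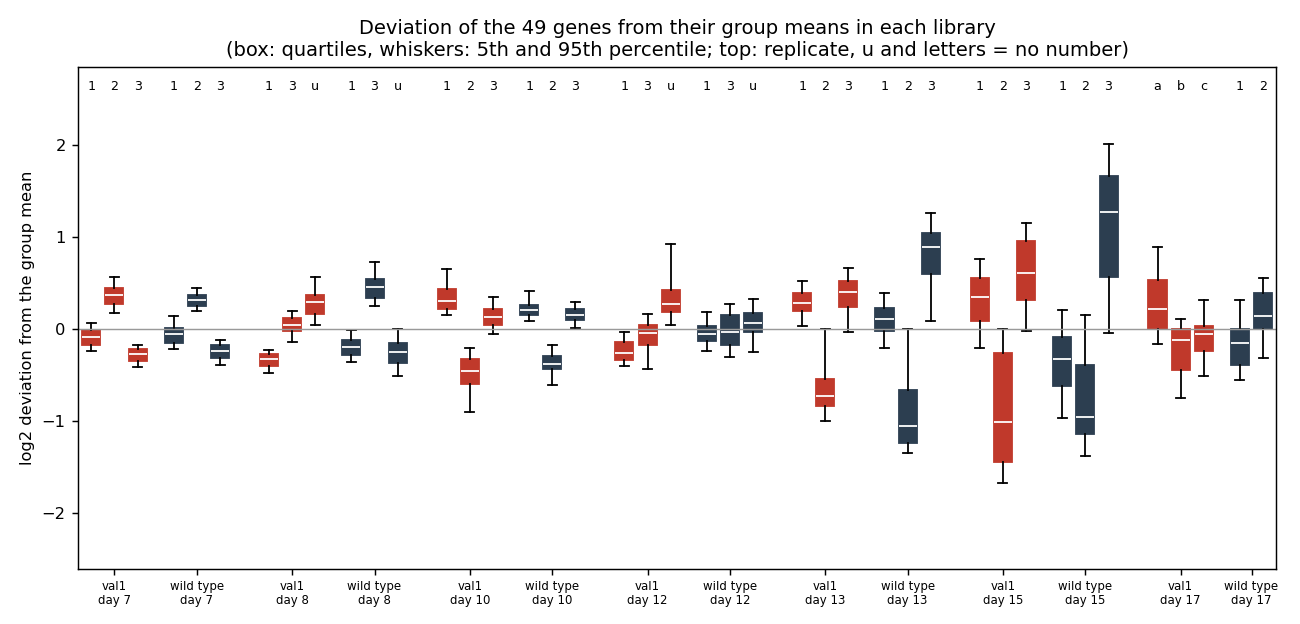
Deviation of the 49 genes from their group mean in each library, on the log2 scale. Boxes span the quartiles, white lines are medians and whiskers reach the 5th and 95th percentiles, with val1 in red, wild type in dark blue and replicate numbers along the top. Replicate 2 of day 13 lies low in both genotypes (-0.73 in val1 and -1.05 in wild type) and replicate 3 of wild type at day 15 lies high (1.27).

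Other genes of photosynthesis were counted from lists. Of 24 chlorophyll synthesis genes, 23 were tested. From day 8 to day 10, 20 of them fell and none rose in each genotype, when 29.5% of all genes fell in val1 and 29.3% in wild type. From day 10 to day 12, 22 fell and none rose in val1 (12.9% of all genes fell), while 21 fell and 1 rose in wild type (14.4% of all genes fell). From day 12 to day 13, 2 fell in val1 (2.24% of all genes fell) and 8 in wild type (12.7%). From day 13 to day 15, 13 fell and 2 rose in val1 (28.9% of all genes fell and 24.5% rose), and 12 fell and 3 rose in wild type (28.7% and 24.7%). From day 15 to day 17, 3 fell and 4 rose in val1 (24.8% of all genes fell and 18.9% rose), and 1 fell and 3 rose in wild type (18.7% and 14.9%). Between genotypes CHLM, a methyltransferase of the pathway, was higher in val1 at day 13 (0.87, adjusted p = 0.0252) and HEMD lower (-0.48, adjusted p = 0.0345), and G4, the chlorophyll synthase, was lower at day 15 (-0.96, adjusted p = 0.00692). On average over days 2 of the 23, LIN2 (0.18) and PCB2 (0.25), were higher, when 19.9% of all genes were higher.

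Among 10 regulators of photosynthesis genes, 2 were higher and none lower in val1 at day 15, when 11.9% of all genes were higher and 5.53% lower, and 3 were higher and 1 lower at day 17, when 9.97% were higher and 5.45% lower. With 10 genes, the day-15 count is near that background. GPRI1, which encodes the activator GLK1, averaged 1.31 ± 0.58 scaled FPKM in val1 at day 15 and 0.379 ± 0.36 in wild type (SD, n = 3 each; difference 1.07, adjusted p = 0.0101). GLK2 averaged 7.03 ± 1.5 in val1 at day 17 (SD, n = 3) and 3.31 ± 0.61 in wild type (SD, n = 2; difference 0.97, adjusted p = 0.00372). HYH, a light-response factor, was higher at day 15 (difference 1.53, adjusted p = 0.018), and GNC, a GATA factor, was higher at day 17 (0.73, adjusted p = 0.00523). PIL5, a repressor of light responses, was lower at day 17 (-1.24, adjusted p = 0.0179). GPRI1, GLK2, GNC and HYH, 4 of the 10, were also higher on average over days (0.59, 0.30, 0.23 and 0.57). Of all genes 19.9% were higher on that average.

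Of 8 LHC-like proteins, 2 were higher in val1 at day 15, when 11.9% of all genes were higher, and none on other days. With 8 genes, this count is near that background. ELIP2, an early light-induced protein, averaged 32.9 ± 20.9 scaled FPKM in val1 and 7.78 ± 5.58 in wild type at day 15 (SD, n = 3 each; difference 2.07, adjusted p = 0.00494). OHP was higher there by 1.09 (adjusted p = 0.0291), and ELIP2 also on average over days (0.57). Of 14 genes for electron carriers, thylakoid import and state transitions, CPFTSY, the receptor of the particle that inserts antenna proteins, was higher in val1 at days 10, 15 and 17 (0.43, 0.58 and 0.50) and on average. ALB3, an insertase, was higher at day 12 (0.82) and on average (0.27), and FD1, a ferredoxin, was higher at day 13 (1.15). CPSRP54, a subunit of the inserting particle, was lower at day 17 (-1.05, adjusted p = 0.016). Days 10, 12, 13, 15 and 17 thus each had 1 of the 14 higher. Of all genes 3.53, 5.45, 10.8, 11.9 and 9.97% were higher on those days, and 5.45% were lower at day 17. On average over days 19.9% of all genes were higher.

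Of the 11 chloroplast-encoded genes, 3 rose and none fell from day 10 to day 12 in each genotype, with a median of 1.47 in val1 and 1.65 in wild type. Of all genes 10.6% rose in val1 and 12.1% in wild type. In wild type at day 12, 1 library stood far above the others for ATCG00280 (24.7, 35.0 and 171) and ATCG00720 (1.46, 3.17 and 41.4). From day 15 to day 17, 5 fell in val1 (24.8% of all genes fell) and 4 in wild type (18.7%). At day 15, 4 of the 11 were higher in val1 and none lower (11.9% of all genes were higher and 5.53% lower). At day 17, 3 were higher (9.97% of all genes). ATCG00280 averaged 51.1 ± 19.5 scaled FPKM in val1 and 11.2 ± 7.30 in wild type at day 15 (SD, n = 3 each; difference 2.25, adjusted p = 0.018). At day 17 it averaged 12.8 ± 7.88 in val1 (SD, n = 3) and 0.595 ± 0.31 in wild type (SD, n = 2; difference 3.38, adjusted p = 0.00163). The other chloroplast genes called at day 15 were ATCG00020 (1.75), ATCG00270 (2.19) and ATCG00350 (1.74). How the protocol captured transcripts without long poly(A) tails is not given in the sources used here.

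Markers of other seed tissues were followed beside these results. Of 10 endosperm markers 4 were tested and none was called between genotypes on any day. From day 12 on all 10 summed to 29.4 to 141.6 scaled FPKM in val1 and 35.0 to 220.8 in wild type, nearly all of it EPR1, and without EPR1 to at most 0.886 in val1 and 0.523 in wild type. The 10 seed coat markers, of which 7 were tested, summed to 10.4 to 14.2 scaled FPKM in val1 and 5.09 to 7.96 in wild type at day 13, to 2.99 to 5.06 in val1 and 1.87 to 2.47 in wild type at day 15, and to 2.32 to 2.90 in val1 and 1.24 to 1.46 in wild type at day 17. Most of each sum was MUM4, which averaged 9.54 scaled FPKM in val1 and 4.44 in wild type at day 13. It averaged 3.50 in val1 and 1.81 in wild type at day 15, and 2.19 and 1.02 at day 17. MUM4 was higher in val1 on these days (1.04, 0.78 and 0.81), as was TTG2 at day 15 (0.52). No other tested seed coat marker was called between genotypes on these days. TT2, TT16 and AT4G11180 were at 0 in every library of both genotypes on these days, and the part of seed coat RNA in the results of days 13 to 17 was not tested. Of the maturation regulators, LEC1 was higher in val1 at days 10 and 12 (0.82 and 0.59), FUS3 at days 15 and 17 (0.64 and 1.53) and ABI3 at day 17 (0.67).

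The 300 bases before each gene's annotated start (RefSeq, TAIR10.1) were searched on both strands for 4 motifs, CATGCA (the RY core), CACGTG (the G-box), GATAAG (the I-box) and CCAAT; matches of different motifs may share letters. CACGTG was present in 24.5% of the 49 windows and in 7.09% of 27444 windows of all genes, and CCAAT in 69.4% and 51.9%. For GATAAG the shares were 22.4% and 14.5%, and for CATGCA they were 12.2% and 10.3%. With windows of 250 bases before to 50 after the start, CACGTG was in 34.7% of the 49 and 7.68% of all, GATAAG in 44.9% and 14.6%, CCAAT in 73.5% and 51.6%, and CATGCA in 10.2% and 9.72%. The window shown was settled after both had been run, and a match is a description of the letters only. The windows of 5 genes are printed with motif matches on either strand in capitals: CAB1, the most abundant of the 49, LHCB7 and PETC, which departed from the common time course, and LHCA5 and PSBR, which differed between genotypes on the most days.
CAB1 (chr1:10477585-10477884, + strand): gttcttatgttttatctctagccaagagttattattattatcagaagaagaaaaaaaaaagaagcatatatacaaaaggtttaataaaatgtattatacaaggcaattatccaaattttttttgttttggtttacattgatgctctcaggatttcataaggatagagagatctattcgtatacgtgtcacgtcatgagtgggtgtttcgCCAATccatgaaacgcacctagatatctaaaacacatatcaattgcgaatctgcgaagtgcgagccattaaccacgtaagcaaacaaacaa
LHCB7 (chr1:28728698-28728997, + strand): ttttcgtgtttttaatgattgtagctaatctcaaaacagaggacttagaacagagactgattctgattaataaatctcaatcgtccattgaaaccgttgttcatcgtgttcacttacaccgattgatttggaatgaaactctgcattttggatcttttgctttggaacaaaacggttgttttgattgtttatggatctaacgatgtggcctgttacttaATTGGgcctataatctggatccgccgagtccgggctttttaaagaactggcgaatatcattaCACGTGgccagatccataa
PETC (chr4:1439846-1440145, + strand): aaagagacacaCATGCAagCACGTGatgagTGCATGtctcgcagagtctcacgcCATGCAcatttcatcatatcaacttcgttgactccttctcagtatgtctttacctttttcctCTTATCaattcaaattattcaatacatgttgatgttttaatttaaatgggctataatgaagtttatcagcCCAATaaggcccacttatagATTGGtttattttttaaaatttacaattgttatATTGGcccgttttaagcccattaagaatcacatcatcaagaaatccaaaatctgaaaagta
LHCA5 (chr1:17178950-17179249, + strand): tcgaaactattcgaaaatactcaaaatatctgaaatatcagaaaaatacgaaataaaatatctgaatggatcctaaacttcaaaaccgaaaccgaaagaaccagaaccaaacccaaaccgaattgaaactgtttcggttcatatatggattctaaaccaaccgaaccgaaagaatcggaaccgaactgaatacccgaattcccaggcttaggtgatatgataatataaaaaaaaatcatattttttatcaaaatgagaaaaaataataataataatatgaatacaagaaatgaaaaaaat
PSBR (chr1:29735652-29735951, + strand): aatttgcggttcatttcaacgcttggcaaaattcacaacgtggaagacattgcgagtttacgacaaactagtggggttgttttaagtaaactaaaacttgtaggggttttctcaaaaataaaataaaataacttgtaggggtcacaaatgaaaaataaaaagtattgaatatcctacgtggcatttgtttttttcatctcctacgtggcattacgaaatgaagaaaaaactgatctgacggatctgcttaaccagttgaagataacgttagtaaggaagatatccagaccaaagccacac
PETC holds all 4 motifs, with CATGCA 3 times, LHCB7 holds CACGTG and CCAAT, CAB1 holds CCAAT, and the LHCA5 and PSBR windows hold none of the 4.

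The authors' deposited table of genotype results lists 7 transcripts of 5 of these genes. In the authors' deposited table LHCA5 has 2 transcripts (adjusted p = 4.46e-08 and 0.000243), LHCB7 has 2 (0.00107 and 0.0041), and PETC, LHCA6 and PSBR have 1 each (0.00128, 0.00149 and 0.00549). The differences given in the authors' deposited table reach 1.79 for PETC at day 17, 3.97 for LHCA6 at day 10 and 1.97 for PSBR at day 15 on the log2 scale. For LHCA6 the limma difference at day 10 was 1.69, on a scale whose pseudocount of 0.5 exceeds its wild-type level there.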

How the data were processed

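RNA-seq values for val1 and wild-type embryos at 7 ages were used as deposited. Per the submitters' processing notes, TopHat2, StringTie and TAIR10 were used, without roles or versions. The authors' main table gives FPKM per transcript with the transcript length in bases. The deposited FPKM, multiplied by length, add up to an equal total for each library. Low values fell on whole steps of 1/12 of a read (within 0.02 of a step), which gave the estimated depth on the assumption that the smallest value is 4 such steps. A second deposited table, named for counts, holds almost no whole values (99.9997% of nonzero values are not whole) and was treated as a signal of unstated unit, as an alternative only. The authors' deposited table of genotype results gives log2 differences, an F score and p-values for transcripts with an adjusted p under 0.05.

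Of 53988 transcripts, 52881 that match a gene exactly or share its junctions were summed per locus, with 68 of the 75 transcripts of the 49 genes kept (62 exact and 6 sharing junctions) and 7 left out. Libraries were scaled by an unweighted trimmed mean of log ratios (30% and 5% trims). Genes reaching 1 FPKM in 2 or more libraries entered the test as log2(scaled FPKM + 0.5) in limma 3.58.1 (R 4.3.3), with a trended prior, 14 group means and 27 residual degrees of freedom; fold changes on this scale understate those of low genes. Adjusted p-values are Benjamini-Hochberg over 18389 genes. Samples were grouped by the genotype and age in their titles, and 7 columns by group alone: 4 named as replacements, and those of val1 at day 17, whose names without separators equal those of day-7 libraries (day-7 columns are listed apart). The alternatives were other pseudocounts, no filter, no scaling, exact matches alone, the second table, limma-voom on recovered reads, the 37 libraries other than the unnumbered ones of days 8 and 12 with and without a replicate block, and leaving out each library. The fitting script was tested on simulated data.

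The members, lists and tests were chosen with earlier results of these data known. Named genes are, in each role group, those with the highest mean and the largest and smallest drop to day 17 in wild type, up to 5 called genes per daily comparison by size, called genes on average over days, and any called against the direction of most. LHCB4.2, LHCB4.3 at other ages, the copy pairs and genes named for abundance were chosen after their values were seen. Sequences and gene positions are from RefSeq. Tables and figures were made with numpy 2.4.6, pandas 2.3.3, scipy 1.17.1, Biopython 1.88 and matplotlib 3.10.9.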

Additional observations from a re-analysis of the deposited data

Results flagged for a closer look

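Without the replicate block, limma's interaction test over 7 days called 5 of the 49 genes. For these the difference between val1 and wild type itself differed between ages. With the block more of the 49 were called, and their share was above that of all genes, as counted below. PETC had an adjusted p of 0.00231, with a genotype difference of 1.73 at day 17 and -0.31 to 0.19 on the other days. LHCA6 had 0.00391, with differences of 0.90 and 1.69 at days 8 and 10 and 0.00 from day 13 on, where it was listed at 0 in every library. LHCB7 had 0.0117, with differences of -0.95 and -1.05 at days 12 and 13 and -0.16 to 0.11 on the other days. LHCB4.3 had 0.0311, with a difference of 1.47 at day 17 and -0.40 at days 7 and 8. PSBR had 0.0492, with differences of -0.32 and -0.06 at days 7 and 8 and 1.27, 1.84 and 1.57 at days 13, 15 and 17. No group of 4 or more libraries exists here, so single libraries were not screened within groups.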

How the results depend on the processing

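Over the alternatives, 150 of the 219 recomputed counts of called genes stayed within 1.5 times the value given, and 69 moved. Of 345 recomputed values for 32 named gene results, 286 kept their direction and call, 58 kept their direction and lost the call, and 1 reversed: LHCB4.1 from day 15 to day 17 in val1 was -0.35 in the second deposited table, and the cause was not tested. For all counts below the cause was not tested, beyond what fewer libraries imply.

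Genotype calls at day 8 numbered 1 with a pseudocount of 0.1, with no filter, in the second table and with days 8 and 12 by numbered libraries alone. At day 10 there was 1 in the second table. At day 12 there was 1 with either other pseudocount (0.1 and 1), no filter, no scaling, limma-voom or days 8 and 12 by numbered libraries alone, and 0 in the second table. At day 13 limma-voom gave 5, and at day 17 no scaling and the second table gave 2 each. For the interaction, no filter, exact matches alone and the second table gave 3 each and limma-voom 2. In the second table the intervals of wild type gave 1 (days 7 to 8), 12 (8 to 10), 23 (10 to 12), 27 (12 to 13) and 2 (15 to 17), and those of val1 gave 11 (8 to 10) and 31 (10 to 12). That table also holds another set of columns at day 8.

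Wild type from day 15 to day 17 gave 9 with a pseudocount of 0.1. Val1 from day 7 to day 8 gave 4 with a pseudocount of 0.1, 12 with a pseudocount of 1, 13 with no scaling, 12 with limma-voom and 3 with days 8 and 12 by numbered libraries alone. From day 8 to day 10, no scaling gave 46 in wild type and 38 in val1, and days 8 and 12 by numbered libraries alone gave 12 in val1. Val1 from day 12 to day 13 gave 0 with a pseudocount of 0.1, no filter or days 8 and 12 by numbered libraries alone, 2 with a pseudocount of 1, 4 with no scaling and 5 with limma-voom. Val1 from day 15 to day 17 gave 9 with limma-voom. Without scaling the median of all genes was also -0.42 in val1 and -0.40 in wild type from day 10 to day 12, -0.17 and 0.14 from day 15 to day 17, 0.10 in val1 from day 7 to day 8, -0.11 in wild type from day 12 to day 13, and 0.11 and -0.24 between genotypes at days 15 and 17.

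Leaving out 1 library in turn gave 1 to 2 genotype calls at day 8, 1 to 2 at day 12, 2 to 14 at day 13, 1 to 27 at day 15, 1 to 4 at day 17 and 4 to 7 on average over days, and 3 to 8 for the interaction. In wild type it gave 1 to 3 from day 7 to day 8, 13 to 28 from day 8 to day 10, 18 to 42 from day 12 to day 13, and up to 14 from day 15 to day 17. In val1 it gave 3 to 12, from 10 upwards, 0 to 4 and from 5 upwards for the intervals 7 to 8, 8 to 10, 12 to 13 and 15 to 17.

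With the replicate block, fitted on 37 libraries with no block at day 17, genotype calls numbered 3 at day 7, 4 at day 8, 1 at day 12, 23 at day 13 (22 higher and 1 lower), 22 at day 15 (20 higher and 2 lower) and 10 on average over days, and 32 for the interaction. Over all 18334 genes in that fit, 4922 were called at day 13, 4847 at day 15 and 5902 for the interaction. Libraries of the same number deviated together in 15 of 16 pairs on days 7 to 15 (correlation over 0.1; lowest 0.074, highest 0.604), so the rule that every pair does was not met and the numbers were not taken as pairing. The block calls had been seen when that was settled. No paired analysis was possible for the intervals between ages, because nothing ties a number at one age to that number at another. The median residual SD of 0.63 for the 49, against 0.22 for all genes, and day-17 means under 1 FPKM for 35 of the 49 in val1 and 36 in wild type both bear on the late comparisons; which limits them more was not tested.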
